A study of Mus musculus with 4 samples.

Results

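The Ptp4a phosphatases are a family of 3 genes, Ptp4a1, Ptp4a2 and Ptp4a3 (Entrez genes 19243, 19244 and 19245), and each was read by 1 of the 25206 probe sets on the arrays. The family was chosen by the difference of Ptp4a1 between the Cpeb4 immunoprecipitate (IP) and the IgG control in an earlier look at these values. The members were then taken by gene symbol. Their differences from IgG are therefore given as a description, without a test. The probe sets are named by Entrez gene number, and which transcript forms or gene copies their probes read was not given in the sources used here.

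Ptp4a proteins, also called phosphatases of regenerating liver (Prl-1, Prl-2 and Prl-3), are small protein tyrosine phosphatases that are held at membranes by a farnesyl lipid on their C-terminus. They bind the CNNM proteins, which control magnesium transport, and this binding is a main known function of the family. Ptp4a1 was found as an early response gene of regenerating liver, Ptp4a2 has been studied in blood stem cells and Ptp4a3 in metastatic tumours. Cpeb4 binds RNA and belongs to the cytoplasmic polyadenylation element family of proteins, which act on the poly(A) tails and translation of mRNAs.

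RNA came from mouse erythroblasts of the E14.5 fetal liver, taken with magnetic beads against the red cell surface protein Ter119. All 4 arrays share this source, and neither strain nor genotype was given in the sources used here. The groups were total input RNA, with no antibody (1 array), the precipitate with control rabbit IgG (1 array) and the precipitate with an anti-Cpeb4 antibody (2 arrays, named as biological replicates). Values are RMA expression values on a log2 scale, so a difference of 1 is a 2-fold change. With 1 array for each control, the spread is known for the IP alone.

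Ptp4a1 stood far above both controls in the Cpeb4 IP. Its log2 value was 6.90 in input, 5.13 in IgG, 9.17 in IP replicate 1 and 9.30 in IP replicate 2. Both IP arrays were higher than either control, and IgG was the lowest of the 4. The IP mean was 9.23 ± 0.09 (SD, n = 2). Among the 23185 probe sets with a gene symbol, the Ptp4a1 value exceeded 80.2% on the input array, 63.6% on the IgG array, and 96.9% and 97.2% on the IP arrays. Its rank among all genes was thus higher on the IP arrays and lower on the IgG array than in input.

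Against IgG, Ptp4a1 was higher by 4.04 and 4.17 in the IP replicates, a mean difference of 4.10 or 17.2-fold. This was the 7th largest difference among 13911 tested genes, and it is the value that led to the choice of the family. Against input, it was higher by 2.27 and 2.40, and it rose by 2.34 on average (SE 0.09, 5.05-fold, limma adjusted p = 0.0389). This difference was the 64th largest of the same genes. The call against input did not hold with no filter on low values (limma adjusted p = 0.0507). Nor did it with eBayes with trend and robust (limma adjusted p = 0.0633). It passed in the other limma alternatives, with limma adjusted p from 0.0133 to 0.0382. A normal distribution with a common IP spread gave an adjusted p of 1.23e-75. That value takes the spread as known and holds no spread between input arrays, so it is not comparable with those of limma. The contrast with input uses the same IP arrays as the contrast with IgG, so it is not independent of the choice. These are differences between precipitated and input RNA, not changes of expression in the cells. In such bulk values the share from each kind of cell cannot be told apart. What brought the RNA into the precipitate was not tested.

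Ptp4a2 was also above both controls, by less. Its log2 value was 8.57 in input, 6.70 in IgG, and 9.50 and 9.49 in the IP replicates, whose mean was 9.50 ± 0.01 (SD, n = 2). The order of the arrays was that of Ptp4a1, with IgG lowest and the IP arrays highest. The Ptp4a2 value exceeded 93.3% of probe sets with a symbol on the input array, 86.1% on IgG and 97.8% on each IP array. Against IgG it was higher by 2.81 and 2.80, a mean difference of 2.80 (6.97-fold) that ranked 134th. Against input it rose by 0.94 and 0.93, on average 0.93 (SE 0.01, 1.91-fold, limma adjusted p = 0.0167). Both replicates were thus just short of 2-fold over input. The small SE and p-value rest on 2 IP values that were almost equal, and do not make this call firmer than that of Ptp4a1. After quantile normalization of the arrays again, the difference from input was 1.12 and that from IgG 2.15.

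Ptp4a3 was not higher in the IP. Its log2 value was 9.09 in input, 8.54 in IgG, and 8.35 and 8.48 in the IP replicates, with a mean of 8.42 ± 0.09 (SD, n = 2). Here the input array was the highest and both IP arrays lay under IgG. The value exceeded 93.1% to 96.7% of probe sets with a symbol on every array, so this transcript was among the more highly measured throughout. Against input the differences were -0.73 and -0.60, on average -0.67 (SE 0.10, limma adjusted p = 0.12), which did not pass. It passed as lower when each array was centred on its median, with a difference of -0.70. Against IgG the replicates differed by -0.19 and -0.06, with a mean of -0.12 that became 0.20 when the arrays were centred on their medians and -0.74 after quantile normalization again. The side of IgG on which Ptp4a3 lay therefore differed with the scaling.

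**Figure D1:**
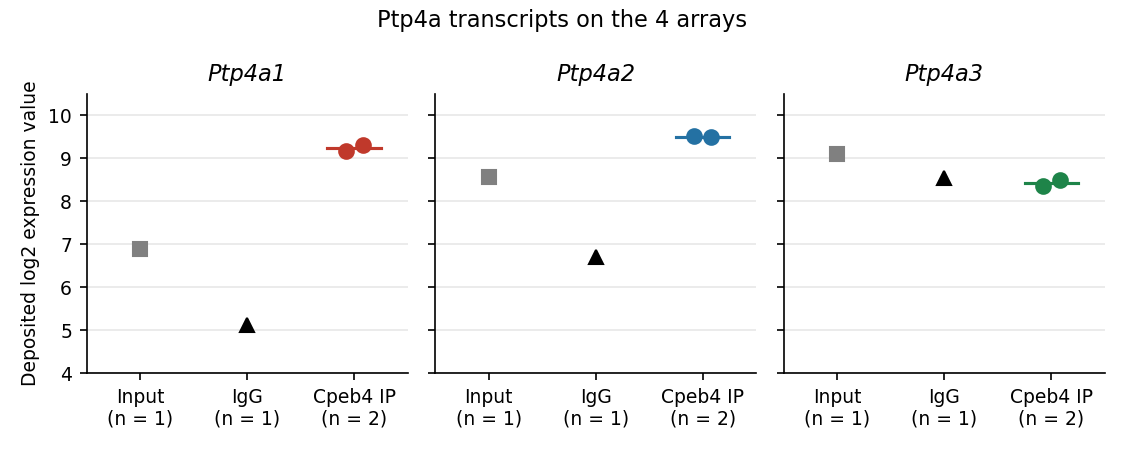
Deposited log2 expression values (vertical axis) of Ptp4a1, Ptp4a2 and Ptp4a3 on the input array (square), the IgG array (triangle) and the 2 Cpeb4 IP arrays (circles, with a line at their mean). Ptp4a1 goes from 5.13 in IgG to a mean of 9.23 in the IP and Ptp4a2 from 6.70 to 9.50, while Ptp4a3 lies between 8.35 and 9.09 on all 4 arrays.

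Most tested genes differed less from the controls than Ptp4a1 did. Of the 13911 tested genes, 18.6% exceeded IgG at least 2-fold in both IP replicates and 6.24% were at least 2-fold under it, and Ptp4a1 and Ptp4a2 were among the higher ones. The family was chosen on that contrast, so nothing is read from the count. Against input, 4.04% of genes, Ptp4a1 among them, exceeded it at least 2-fold in both replicates, and 5.18% were at least 2-fold under it. Limma called 9.39% of genes higher than input, Ptp4a1 and Ptp4a2 among them, and 13.3% lower. At least 2-fold above both controls in both replicates were 2.49% of tested genes, and of the family Ptp4a1 was one. The median difference over tested genes was 0.08 from IgG and -0.01 from input.

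**Figure D2:**
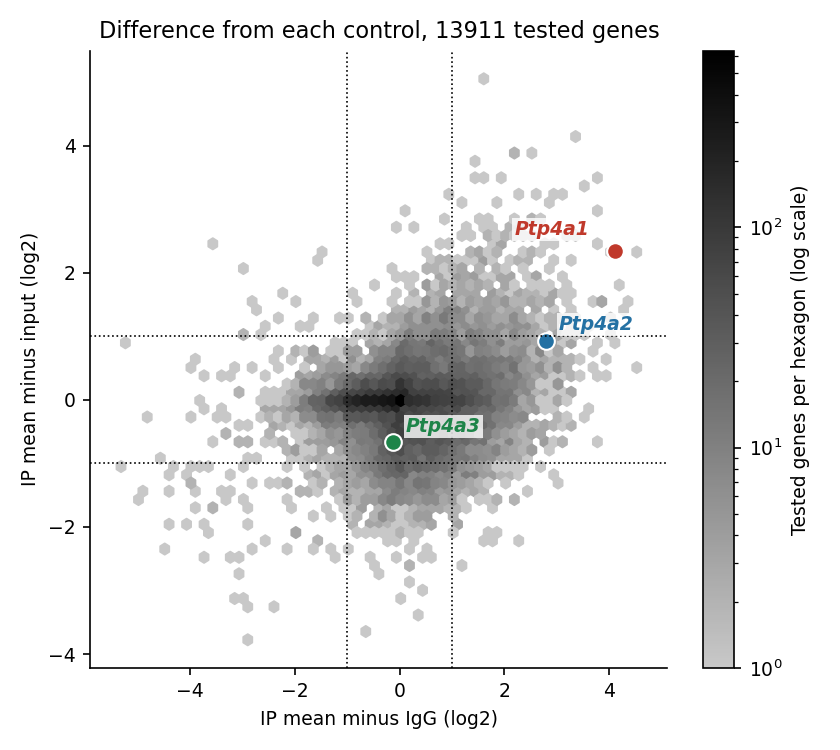
Mean IP difference from IgG (horizontal axis, log2) against that from input (vertical axis, log2) for 13911 tested genes, shaded by the number of genes per hexagon on a log scale, with dotted lines at 2-fold. Ptp4a1 (4.10 and 2.34) lies in the sparse upper right, Ptp4a2 (2.80 and 0.93) just under the upper 2-fold line, and Ptp4a3 (-0.12 and -0.67) within the mass of genes; both axes share the IP arrays.

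The distance from IgG had a part on each side of input. IgG minus input was -1.77 for Ptp4a1 (3.41-fold lower in IgG) and -1.87 for Ptp4a2 (3.65-fold lower), while for Ptp4a3 the difference was -0.55. That step down from input to IgG made up 43.1% of the Ptp4a1 difference between IP and IgG on the log2 scale, and 66.7% of that of Ptp4a2. After quantile normalization again these shares were 38.3% and 47.6%, and with arrays centred on their medians 48.0% and 71.2%. Being at least 2-fold lower in IgG than in input, as Ptp4a1 and Ptp4a2 were, was shared by 23.9% of tested genes, and 8.02% and 6.84% of genes had a lower value of this difference than Ptp4a1 and Ptp4a2. Values on the IgG array were less spread out than on the others, with an SD over all probe sets of 1.74 against 2.05 to 2.13. After quantile normalization again, the difference between IgG and input was -1.54 for Ptp4a1 and -1.02 for Ptp4a2, and for Ptp4a3 it turned to 0.21.

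Within the family, the members parted by similar amounts in each replicate. Ptp4a1 minus Ptp4a2 in the difference from input was 1.33 in replicate 1 and 1.47 in replicate 2. Ptp4a1 minus Ptp4a3 was 3.006 and 3.002, and Ptp4a2 minus Ptp4a3 was 1.67 and 1.53. The order of the differences from input was therefore Ptp4a1, Ptp4a2, Ptp4a3 in each replicate. Both replicates subtract the same input array, so their likeness is that of the 2 IP arrays. The IP spread of single members was 0.01 to 0.09 (SD), which does not hold the spread of the input. The gaps between members were not tested, because the control side had 1 array.

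The mRNAs of the CNNM proteins, which the Ptp4a phosphatases bind, differed by less than 2-fold between the IP and each control. Cnnm3, a partner of Ptp4a2, was at 6.13 on both IP arrays, 5.78 in IgG and 6.16 in input. By limma it rose over IgG by 0.35 (adjusted p = 0.00835), a difference that was -0.05 after quantile normalization again, and it differed from input by -0.02. Cnnm2 was at 6.30 ± 0.09 (SD, n = 2), which was 0.28 from IgG and -0.63 from input, and passed against neither. Cnnm4 was at 5.18 in the IP and in IgG and fell by 0.09 against input (limma adjusted p = 0.0423), a call made on equal IP values. Cnnm1, with values of 3.52 to 4.16, was too low to be tested. Equal IP values such as those of Cnnm3 and Cnnm4, which occurred in 21.8% of tested genes, give limma a spread of 0 there and let it call very small differences.

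Of 21 measured genes for CNNM proteins, ARL15 and magnesium transport, 15 were tested. Limma called 7 of them higher than IgG and 0 lower, where it called 29.2% of all tested genes higher and 17.2% lower. By size, 6 of the 15 lay over IgG by 2-fold or more and 0 under it, against 18.6% and 6.24% of all tested genes. The median difference from IgG was 0.35. After quantile normalization again it was -0.02, with 6 called higher and 1 lower, and with arrays centred on their medians it was 0.68, with 14 called higher. Of all 13911 tested genes, 4299 were called higher than IgG and 4017 lower after quantile normalization again. With centred arrays 7833 of them were called higher, and the median over all tested genes was 0.41. Magt1, a subunit of the oligosaccharyltransferase that has also been described as a magnesium transporter, had log2 values of 7.72 on the input array, 4.93 on the IgG array and 8.94 ± 0.09 on the IP arrays (SD, n = 2). It was 16.05-fold higher than IgG. Input lay 1.21 lower than the IP, which did not pass (limma adjusted p = 0.0659). The large difference of Magt1 from IgG was known when the list was drawn up, so it is given without a test. Magt1 is among the 7 genes called higher than IgG and the 6 higher by size. Nipa1, a magnesium transporter, rose over IgG by 2.12 and was 0.03 from input. Mrs2, the magnesium channel of mitochondria, rose over IgG by 2.02. Trpm7, a magnesium-permeable channel joined to a kinase, rose over it by 1.72, or 0.99 after quantile normalization again. From input, Mrs2 differed by 0.58 and Trpm7 by 0.50, and neither passed. Slc41a1, a sodium-magnesium exchanger, was 0.09 from IgG and did not pass, and that difference was -0.12 after quantile normalization again.

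Against input, limma called 0 of these 15 genes higher and 2 lower, Nipal3 (-0.45) and Cnnm4 (-0.09), where the shares of all tested genes were 9.39% and 13.3%. The higher ones numbered 4 with centred arrays, 4 with a common IP spread and 3 after quantile normalization again. Of all 13911 tested genes these settings called 1575, 2044 and 1239 higher. By size 1 of the 15 was higher and 0 lower, against 4.04% and 5.18% of all tested genes. Slc41a3 (-1.01) and Mmgt1 (0.82), both named as magnesium transporters, did not pass. The median over the list was 0.09, while that of IgG minus input was -0.80.

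The genes that make, attach and process prenyl lipids were in part higher than IgG, and none was called higher than input by limma. The list also holds genes that act on other prenylated proteins, such as Rab proteins. All 12 were tested, and limma called 6 higher than IgG and 1 lower (29.2% and 17.2% of all tested genes), with a median difference of 0.85. By size 6 were higher and 0 lower, against 18.6% and 6.24% of all tested genes. After quantile normalization again 6 were called higher and 3 lower, with a median of 0.56, where 4299 and 4017 of all 13911 tested genes were. With centred arrays 11 and 1 were called, with a median of 1.17, where 7833 and 1934 of all tested genes were. Zmpste24, a protease that trims prenylated proteins, rose by 2.49, and Ggps1, which makes geranylgeranyl diphosphate, by 2.09. Fnta, the alpha subunit of farnesyltransferase, rose by 1.98, and Fntb, the farnesyltransferase beta subunit, by 0.47. Fdps, which makes farnesyl diphosphate, fell by 1.03, and the difference was -1.64 after quantile normalization again. Rabggta, a subunit of the enzyme that prenylates Rab proteins, had the same value of 5.25 on all 4 arrays. In the IP, Zmpste24 and Ggps1 were each 0.11 from input, and Fnta was at its input value of 6.69 on both arrays. For Zmpste24, Ggps1 and Fnta, IgG minus input was -2.39, -1.98 and -1.98.

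Against input, none of the 12 was called higher by limma and 2 fell, against 9.39% and 13.3% of all tested genes, and their median was 0.00. With centred arrays 1 was called higher and 3 lower, where 1575 and 2804 of all 13911 tested genes were. By size 0 were higher and 1 lower, against 4.04% and 5.18% of all tested genes. Fdps fell by 1.39 (limma adjusted p = 0.0422) and Fntb fell by 1.00 (limma adjusted p = 0.0163). The call of Fntb was made on equal IP values, and its difference was just short of 2-fold. Neither Chml, a Rab escort protein, at 0.98 over input (limma adjusted p = 0.192), nor Pggt1b at 0.35 passed. For IgG minus input the 12 genes had a median of -1.15. At least 2-fold lower in IgG were 7 of them, against 23.9% of all tested genes.

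Among the other protein phosphatases of the cysteine-dependent kind, no tested gene was as far above IgG as Ptp4a1 or Ptp4a2. The Ptp4a1 difference from IgG led to the choice of the family, so its rank on that contrast follows from the choice. The lists held 17 non-receptor tyrosine phosphatases (15 tested), 20 measured receptor tyrosine phosphatases (11 tested) and 20 measured CDC14, CDC25 and further small phosphatases (18 tested). Over these 44 genes limma called 11 higher than IgG and 5 lower, against 29.2% and 17.2% of all tested genes, with a median of 0.06. By size 10 were higher and 0 lower, against 18.6% and 6.24% of all tested genes. With centred arrays limma called 29 higher and 4 lower, with a median of 0.38, and after quantile normalization again 18 and 8, with a median of 0.14. Against input it called 5 higher and 3 lower, where 9.39% and 13.3% of all tested genes were called, with a median of 0.04. By size 3 were higher than input and 3 lower, against 4.04% and 5.18% of all tested genes. With centred arrays limma called 8 and 7, where it called 1575 and 2804 of all 13911 tested genes. Ptp4a1 exceeded all 44 in both differences, Ptp4a2 all 44 against IgG and all but 3 against input, while 34 and 40 of the 44 exceeded Ptp4a3. Under the other scalings Ptp4a1 and Ptp4a2 still exceeded all 44 against IgG and Ptp4a1 all 44 against input. These ranks describe the values and were not tested, and nothing is read from those against IgG. The ranks against input share the IP arrays with them.

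Of the non-receptor phosphatases, Ptpn11 and Ptpn12 had the highest differences from IgG. Ptpn11, the SHP2 phosphatase of growth factor and cytokine signalling, was 2.04 over IgG, where it passed (limma adjusted p = 0.029), and 0.82 over input without passing. Ptpn12 rose over IgG by 1.78, or 1.09 after quantile normalization again, and was 0.56 over input without passing. Ptpn2, which acts on JAK kinases, differed by 1.48 from IgG and -1.16 from input and passed in neither. Ptpn18 differed by -0.62 from IgG, and Ptpn7 and Ptpn9 were each 0.93 over input, none past the test. Ptpn5 was called lower than IgG, by a difference of -0.15 that became 0.20 after quantile normalization again and 0.18 with arrays centred on their medians.

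Of the 44, 3 receptor phosphatases were at least 2-fold above both controls in both replicates, against 2.49% of all tested genes. They were singled out after their values were seen. Ptpre was 1.23 over IgG and 1.22 over input, and Ptprj was 1.56 and 1.15 over them, neither past the test in either contrast. Ptprc, the leukocyte common antigen CD45, was 1.12 over IgG, where it passed (limma adjusted p = 0.044), and 1.11 over input (limma adjusted p = 0.07). Ptprf and Ptpru, both receptor phosphatases, each fell by 0.79 against IgG and were within 0.05 of input. With centred arrays the differences from IgG were -0.47 and -0.46. Ptprn had the same value of 3.87 on all 4 arrays.

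Of the small phosphatases, Dusp11, which acts on RNA ends, rose over IgG by 1.82 and Cdc25a, an activator of cyclin-dependent kinases, by 1.45. After quantile normalization again these differences were 1.11 and 0.71. From input, Dusp11 differed by 0.22 and Cdc25a by -0.16, and neither passed. Ssh3, a cofilin phosphatase, fell by 0.63 against IgG, a difference of -0.30 with centred arrays and -0.99 after quantile normalization again. Cdc25c was at -0.94 from IgG and -1.71 from input and Cdkn3 at -1.42 from input, none past the test. Styx and Ssh2 were 0.68 and 0.55 over input, also without passing.

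**Figure D3:**
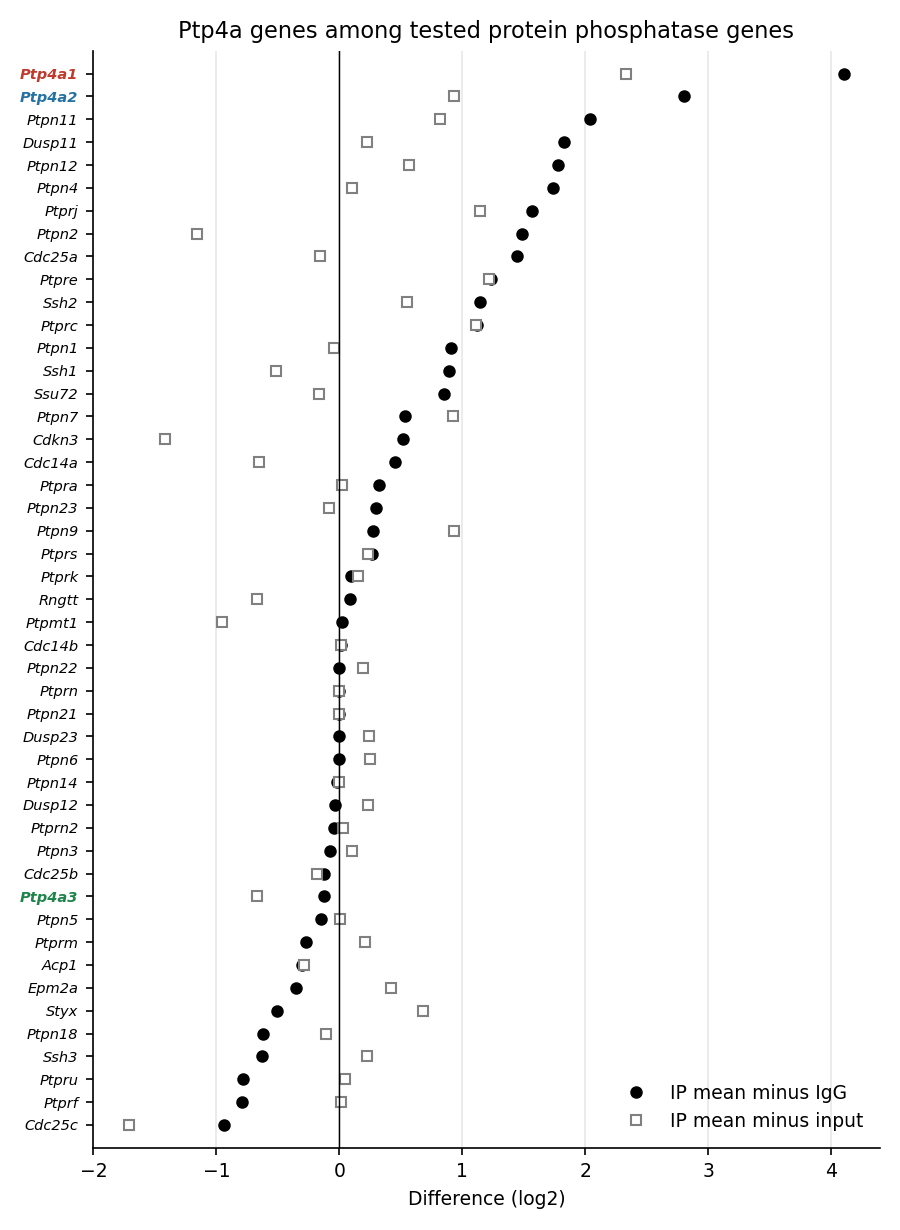
Mean IP difference from IgG (filled circles) and from input (open squares), in log2 units on the horizontal axis, for the 3 Ptp4a genes and 44 other tested phosphatase genes, ordered by the difference from IgG. Ptp4a1 (4.10 and 2.34) is at the top, followed by Ptp4a2 (2.80 and 0.93) and Ptpn11 (2.04 and 0.82), and Ptp4a3 (-0.12 and -0.67) lies in the lower part. The family was chosen by the Ptp4a1 difference from IgG, so its place in this order follows from the choice.

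Signalling genes linked to the Ptp4a proteins were called higher than IgG, lower or not at all. Of 20 tested kinases, GTPases, p53 regulators and adaptors, limma called 10 higher than IgG and 2 lower, with a median of 0.79 that was 0.14 after quantile normalization again, where 6 were higher and 5 lower. All tested genes were called in 29.2% and 17.2%. By size 3 of the 20 were higher and 1 lower, against 18.6% and 6.24% of all tested genes. With centred arrays limma called 16 higher and 2 lower, with a median of 1.11. The centred arrays gave 7833 and 1934 of all 13911 tested genes, and quantile normalization again gave 4299 and 4017. Of the 20, those called lower on the deposited values were Rhob (-0.29) and Stat5a (-0.19). Their differences were -0.59 and -0.91 after quantile normalization again. Ezr, which links membranes to actin and has been reported as a substrate of Ptp4a3, rose over IgG by 2.91 (limma adjusted p = 0.00844). From input Ezr differed by 0.54 and did not pass. Rchy1, a ubiquitin ligase of p53, rose over IgG by 1.95 and fell by 0.62 against input. Rhoc (-1.65) and Mdm2 (-1.03) were under IgG without passing.

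Against input, 6 of the 20 signalling genes were called higher and 1 lower, against 9.39% and 13.3% of all tested genes, with a median of 0.26. By size 1 was higher and 0 lower, against 4.04% and 5.18% of all tested genes. Among those called higher, and not the highest of them, was Itgb1, the integrin beta-1 subunit, with a difference of 1.00 (limma adjusted p = 0.0163). Pik3r1, a regulatory subunit of PI3-kinase, was at -0.64 from input and did not pass. Over all 6 lists, 34 of 91 tested genes (37.4%) were called higher than IgG and 11 (12.1%) higher than input. Over all tested genes the shares were 29.2% and 9.39%. By size 25 of the 91 were higher than IgG and 5 higher than input, against 18.6% and 4.04% of all tested genes. The lists were chosen with earlier results of these data known, so nothing is read from these counts.

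Genes with the profile nearest to each member were found by the distance between log2 values of the 4 arrays after each gene was centred on its own mean. Nearest to Ptp4a1 were Tubb1 (distance 0.45), Spcs3 (0.54), Sms (0.57), Znrf2 (0.62) and Eloc (0.63). Tubb1, the beta-tubulin of platelets and megakaryocytes, was at 6.10 in input, 4.87 in IgG, and 8.41 and 8.86 in the IP replicates.

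Nearest to Ptp4a2 were Ireb2 (distance 0.08), Mtmr6 (0.10), Atp2c1 (0.13), Dnajc19-ps (0.14) and Spryd7 (0.14). Ireb2, the iron regulatory protein, was 2.80 over IgG and 0.84 over input, and Mtmr6, a phosphoinositide phosphatase, 2.76 and 1.03 over them. Nearest to Ptp4a3 were Recql4, Htra2, Gpr146, Pgs1 and Ccdc17, at distances of 0.02 to 0.05. Within a fixed distance, larger than that of Tubb1 (0.45) and smaller than that of Spcs3 (0.54), lay 1876 tested genes for Ptp4a3. For Ptp4a2 they numbered 133 and for Ptp4a1 1, so the genes named for Ptp4a3 are a few of many. Ranked by Pearson correlation in place of distance, the 5 nearest genes shared 0 with those given here for Ptp4a1, 0 for Ptp4a2 and 1 for Ptp4a3. With 4 arrays such likeness is a description of a few values, and the genes named depend on the measure.

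The summed levels of marker genes of other blood and liver cells were higher on the IP arrays than in input. The 8 measured erythroid markers summed to 13.96 in input, 13.65 in IgG, and 13.79 and 13.80 in the IP (log2 of the summed linear values). Of these 8, Hbb-y was at least 2-fold over input in both replicates and Klf1 and Gata1 at least 2-fold under it. Their mean differences were 2.24, -1.71 and -1.40. Of all tested genes, 4.04% were at least 2-fold over input in both replicates and 5.18% at least 2-fold under it. The 5 measured megakaryocyte markers summed to 9.82 in input, 10.81 in IgG, and 11.65 and 11.77 in the IP, and 4 of the 5 were at least 2-fold over input in both replicates. The 7 neutrophil markers summed to 9.39, 10.73, 11.34 and 11.33 in the same order, with 5 of 7 at least 2-fold over input. Both lists thus had higher sums in IgG than in input, but not every gene did. IgG minus input was 2.39 for Pf4 and -0.26 for Gp9, and 2.33 for Ngp and -1.14 for Elane.

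The 7 macrophage markers summed to 7.42 in input, 7.88 in IgG, and 8.61 and 8.84 in the IP, with 2 of 7 at least 2-fold over input, Adgre1 and Csf1r. The 6 measured hepatocyte markers summed to 6.91, 7.82, 9.02 and 9.25, with 3 of 6 at least 2-fold over input. Of 5 endothelial markers 1 was, Pecam1, and their sums were 6.38 in input, 6.60 in IgG, and 7.44 and 7.20 in the IP. The share of all tested genes at least 2-fold over input in both replicates was 4.04%. RMA values have no 0, and the lowest marker value was 3.07. The part of these cells in the values of Ptp4a1 and Ptp4a2 was not tested.

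**Figure D4:**
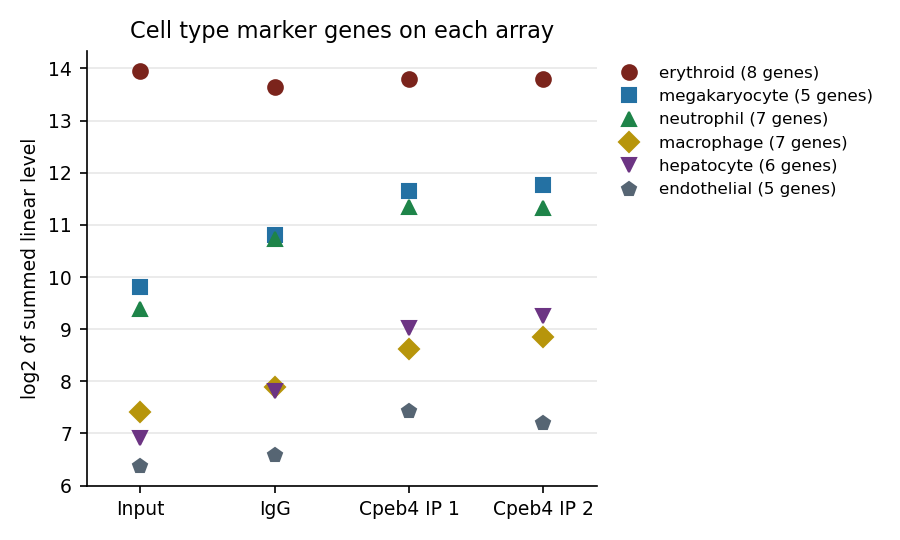
Log2 of the summed linear values of marker genes (vertical axis) for 6 cell types on the input, IgG and Cpeb4 IP arrays. Erythroid markers lie between 13.65 and 13.96 on all 4 arrays, while megakaryocyte markers go from 9.82 in input to 11.65 and 11.77 in the IP.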

How the data were processed

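The authors deposited log2 values for each probe set on each array, made with RMA and the affy package, per the submitters' processing notes; versions and settings are not given in the sources used here. Gene symbols were taken from the platform's annotation. The members and gene lists were chosen with earlier results of these data known. Listed genes without a symbol there were not analysed here.

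From these values, genes whose 4-array mean was at or above the 40th percentile (3.844 in log2) were tested, 13911 in all, with all 3 Ptp4a genes among them. Group means were fitted by limma (version 3.58.1, R version 4.3.3, lmFit, eBayes, 1 residual degree of freedom) and p-values adjusted by Benjamini-Hochberg over all tested genes. A gene rose or fell at an adjusted p below 0.05, and the controls, being single, borrow the spread of the IP arrays. Equal IP values, found in 3032 tested genes, made the prior spread very small (SD 0.00621), so that limma can call very small differences. Counts by size (at least 2-fold in both replicates) are given beside the test. With 4 arrays, their number limits the precision. Whether the replicates came from separate litters was not given.

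Named were the 3 members, the Cnnm genes, the 2 highest and 2 lowest tested genes of each list against each control, and the 5 genes nearest to each member; others were added after their values were seen. One gene that this rule names is not reported here.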

Additional observations from a re-analysis of the deposited data

How the results depend on the processing

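Differences of the members and counts of called genes were recomputed with a 60th percentile filter, with no filter, with quantile normalization again, with arrays centred on their medians, eBayes with trend and robust, a common IP spread (1 SD per twentieth of genes by level), the 2-fold size rule and, for the differences, without each IP replicate. The common spread was taken as known and used with a normal distribution, not with limma. The genes nearest to each member were recomputed by Pearson correlation only, and the marker sums and the gaps between members under none of these. Centring moved the median of all tested genes from 0.08 to 0.41 against IgG. Under leaving out either IP replicate the direction was kept, with differences of 2.27 to 2.40 for Ptp4a1, 0.93 to 0.94 for Ptp4a2 and -0.73 to -0.60 for Ptp4a3 against input, and 4.04 to 4.17, 2.80 to 2.81 and -0.19 to -0.06 against IgG. These are values without a test, since 1 array per group leaves no residual degree of freedom, and counts of called genes were not run there. No paired analysis was possible because the controls have 1 array each. Against input, Ptp4a1 (2.34) did not pass with no filter or with trend and robust, Ptp4a2 (0.93) missed the size rule, and Ptp4a3 passed with centred arrays (-0.70) and with the common spread (-0.67).

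With centred arrays the differences from IgG were 4.43, 3.13 and 0.20 for Ptp4a1, Ptp4a2 and Ptp4a3, the last reversed, and those of IgG from input were -2.13, -2.23 and -0.90. With quantile normalization again Ptp4a2 was 2.15 and Ptp4a3 -0.74 from IgG, and IgG minus input was -1.54, -1.02 and 0.21, the last reversed. The causes were not tested.

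Genes higher than IgG numbered 4061, 7833 with centred arrays and 2588 by size. Genes lower than IgG numbered 2392, 4885 with no filter, 927 with the 60th percentile filter, 4017 with quantile normalization again and 868 by size. Genes higher than input numbered 1306, 2044 with the common spread and 562 by size. Genes lower than input numbered 1845, 2804 with centred arrays, 3107 with the common spread and 721 by size. Of the listed genes, 34 were higher than IgG (70 with centred arrays) and 8 lower (13 with no filter, 5 with the 60th percentile filter, 17 with quantile normalization again, 1 by size). Against input 11 listed genes were higher (21 with centred arrays, 23 with the common spread, 5 by size) and 8 lower (15, 16 and 4 in the same order). For the 24 counts of single lists, 99 of 168 alternative values were within 1.5 times the main one.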
